A study of Mus musculus with 6 samples.

Results

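The 10 genes described here form the core of the mouse Hippo pathway: the kinases Stk3, Stk4, Lats1 and Lats2, the transcriptional coactivators Yap1 and Wwtr1 (also called TAZ), and the DNA-binding partners Tead1, Tead2, Tead3 and Tead4. They were chosen by name, with earlier results of these data known. Every probe whose RefSeq accession belongs to one of them was taken, which gave 18 of the 56605 probes on the array and 10 of the 23462 genes that could be named. RNA was measured on 1 single-colour Agilent array per animal in colon of 6 male mice, 3 labelled control and 3 labelled Islr knockout. All 6 animals, controls included, had 3.5% dextran sulfate sodium (DSS, which damages the lining of the colon) in their drinking water for 5 days and then recovered for 1 day, according to the sample source, although another field of the labels states no treatment. The labels give no strain, age, allele, promoter or Cre driver, so whether Islr was removed from all cells or from some is not known from them. The design text says that samples were separated by flow without naming the cells. Between 7 and 12 markers each of epithelium, fibroblasts, smooth muscle, endothelium, neutrophils, macrophages, B and plasma cells, T cells and enteric nerves were well above background on all 6 arrays, so the RNA is treated as that of mixed tissue.

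In the Hippo cascade, Stk3 and Stk4 (the mammalian MST kinases) activate Lats1 and Lats2, which phosphorylate Yap1 and Wwtr1 and so keep them out of the nucleus. When the kinases are inactive, Yap1 and Wwtr1 enter the nucleus and, bound to a TEAD protein, switch on growth and repair genes; Lats2 is itself a known target of this switch, as a negative feedback. In the colon the pathway is known for its part in the regeneration of the epithelium after injury. Islr encodes a secreted protein with leucine-rich repeats and an immunoglobulin domain, made by stromal cells. Much of the control of the pathway is by phosphorylation and location of proteins, which RNA arrays do not measure.

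Promoter sequence is shown for the members because they encode both the TEAD proteins and a known TEAD target. RefSeq windows (assembly GRCm38.p6) of 300 bases, from 250 before to 50 after an annotated start, were searched for the TEAD core motif GGAATG on both strands (CATTCC on the other). They were also searched for the AP-1 motif TGACTCA, also on both strands, as AP-1 often binds with TEADs. The table held 11 windows of 7 members: Lats1, Lats2, Stk4, Tead2, Tead3, Wwtr1 and Yap1. GGAATG or its complement was found in 6 of the 11 windows, in 4 of the 7 genes, and in 14.7% of 32841 such windows of all genes; both windows of Wwtr1 hold the same copy. The AP-1 motif was in 0 of the 11 windows and in 5.2% of all. The matches follow in 30 bases each, 5′ to 3′ on the gene's strand, with the motif in capitals.
Yap1, chr9:8004720-8004749, minus strand: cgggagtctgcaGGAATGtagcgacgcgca
Wwtr1, chr3:57576029-57576058, minus strand: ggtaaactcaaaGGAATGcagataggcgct
Lats2, chr14:57746102-57746131, minus strand: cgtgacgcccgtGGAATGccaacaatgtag
Tead3, chr17:28350970-28350999, minus strand: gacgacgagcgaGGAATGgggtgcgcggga
Tead3, chr17:28350706-28350735, minus strand: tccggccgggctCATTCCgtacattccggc
Tead3, chr17:28350697-28350726, minus strand: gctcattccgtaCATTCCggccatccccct
Tead3, chr17:28350581-28350610, minus strand: aggtaagcccggGGAATGcaactcggaggc
The motif begins at base 5 after the start in Lats2, at base -141 in Yap1 and at base -136 or -170 in Wwtr1, counted from its 2 starts. A match is a string of letters and not a measured binding site, and nothing on these arrays reports binding.

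The genotype labels were checked on Islr itself. On a log2 scale that puts each array's 75th percentile at 0, its 3 control arrays were at 1.57, 1.24 and 1.21 and its 3 knockout arrays at -1.40, -0.93 and -1.31, in the order of their replicate numbers, a difference of -2.44 (SE 0.21, adjusted p 0.0171 in limma with the marked spot of control replicate 1 left out; 0.0580 without knockout replicate 3). All later levels are on this scale and in this order, and all differences are knockout minus control. The 75th percentile itself was 6353 to 7110.5 intensity units in controls and 4910.5 to 5820.03 in knockouts. Controls and knockouts lay in different rows of the slide, so slide row and genotype cannot be told apart. Probes printed in 10 spots varied within an array with a median SD of 0.041 to 0.055, which gives the size of the spot noise.

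No member probe differed between the genotypes at a 5% false discovery rate over all probes, but a subset of genes was lower in every knockout. Of the 18 probes, 15 probes of 8 genes could be tested; 1 Lats1 probe was never above background, and the brighter Lats1 probe and the Stk3 probe had too few usable spots. limma called 0 of the 15 (lowest adjusted p 0.0572), where it called 3.97% of all 35351 tested probes (2.42% lower and 1.55% higher). An unadjusted p under 0.05 was reached by 8 of the 15, 7 lower and 1 higher, against 26.8% of all tested probes (14.1% lower, 12.8% higher). The median difference was -0.26 over the 15 probes, 11 of them lower, and 5.8e-05 over all tested probes, of which 49.996% were lower. With marked spots kept, 17 probes were above background in a group, and the genotypes did not overlap at 10, with the knockouts lower at 8 and higher at 2, against 34.9% of all such probes (17.6% lower and 17.3% higher). For each such probe the exact permutation test of 3 against 3 gave p = 0.1, the smallest it can give.

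**Figure D1:**
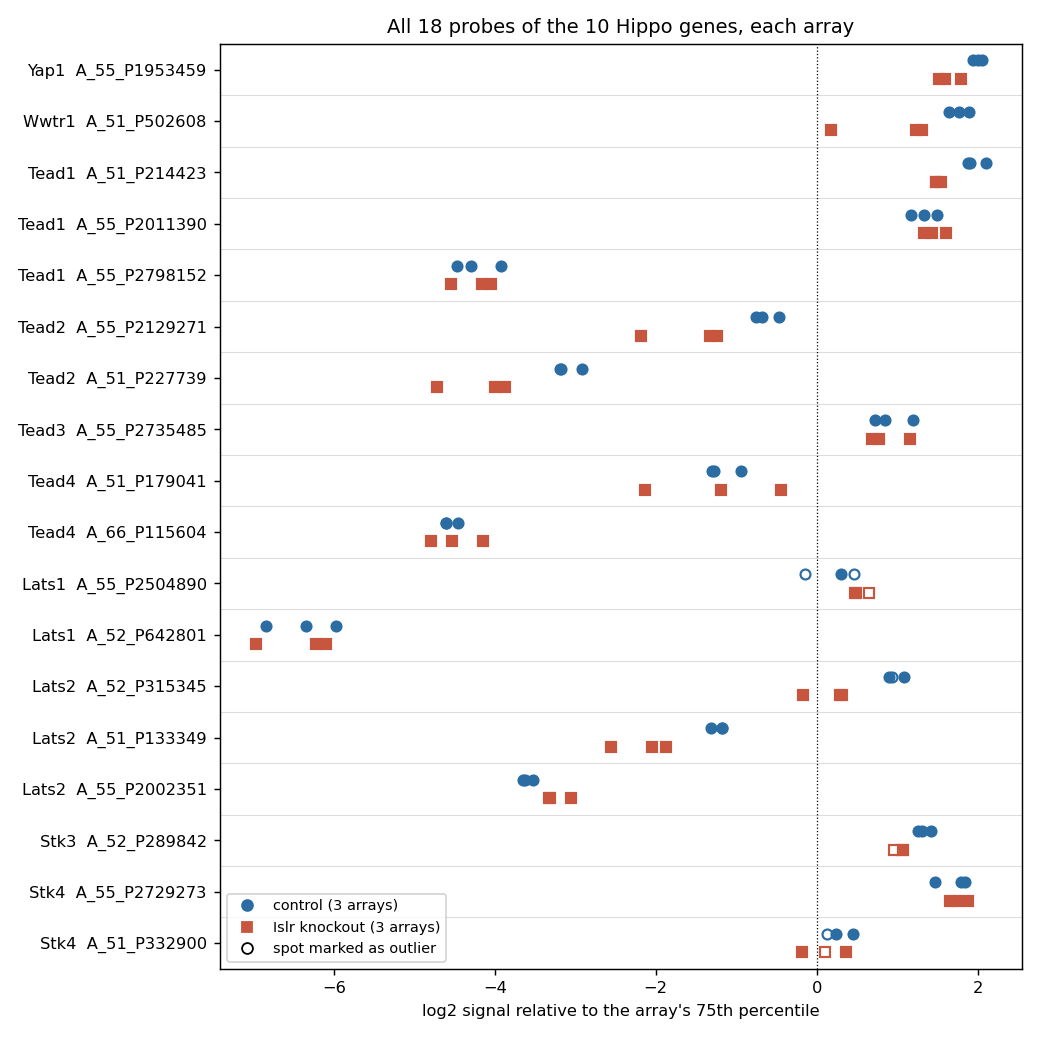
Scaled log2 signal, 0 being the 75th percentile of the array (horizontal axis), of all 18 probes in each of the 6 arrays; circles are controls, squares are Islr knockouts, open symbols are spots marked as outliers. Knockouts lie left of controls without overlap for Yap1, Wwtr1, both Tead2 probes, 2 of 3 Lats2 probes, Stk3 and 1 of 3 Tead1 probes, while Tead3 and Tead4 overlap.

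Of the coactivators, both Yap1 and Wwtr1 were lower in all 3 knockouts. Yap1, at its only probe (A_55_P1953459), had processed signals of 25526, 27330.2 and 27238 intensity units in controls against 14875, 16674 and 20040.5 in knockouts. After scaling these were 2.01, 1.94 and 2.06 against 1.60, 1.52 and 1.80, so the controls lay close together and the groups did not overlap. The difference was -0.36 (SE 0.15, 95% interval -0.72 to -0.01, adjusted p 0.177 in limma), or 1.29-fold lower. Wwtr1, the paralogue of Yap1, also has 1 probe (A_51_P502608), with signals of 23509, 22293 and 22329 in controls against 5534, 14425 and 13556 in knockouts. Knockout replicate 1 was far below the other knockouts, at 0.17 against 1.31 and 1.23, and the controls were at 1.89, 1.65 and 1.77. The difference of -0.86 (SE 0.32, 95% interval -1.62 to -0.11, adjusted p 0.144 in limma) became -0.50 without that replicate. Within an array, Yap1 minus Wwtr1 was 0.12, 0.29 and 0.29 in controls and 1.43, 0.21 and 0.56 in knockouts. These values overlapped, so unequal change of the coactivators was not shown (mean difference 0.50, exact permutation p = 0.3; 0.15 without knockout replicate 1).

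The TEAD genes, which supply the DNA contact for Yap1 and Wwtr1, fell into a gene that was lower at both probes (Tead2), a gene whose probes disagreed (Tead1) and 2 genes with overlapping groups (Tead3 and Tead4). Tead2 was at -0.76, -0.47 and -0.68 in controls and -2.18, -1.24 and -1.33 in knockouts at its brighter probe (A_55_P2129271). The other probe (A_51_P227739) read -3.18, -2.91 and -3.19 against -4.72, -3.87 and -4.00. At both probes every knockout was below every control, and knockout replicate 1 was the lowest. The differences were -0.94 (SE 0.28, adjusted p 0.0922 in limma) and -1.10 (SE 0.25, 95% interval -1.71 to -0.50, adjusted p 0.0605), that is 1.93-fold and 2.15-fold lower. The second passed the threshold under 4 of the 8 other settings on all arrays, with adjusted p from 0.0149 to 0.0367, and in 0 of 6 fits with an array left out. These 4 settings also called more of all 35351 tested probes, 2185 to 8119 against 1403 in the main fit.

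Tead1 was lower at its brightest probe and not at the others. The brightest probe (A_51_P214423) was at 1.90, 2.10 and 1.88 in controls and 1.48, 1.48 and 1.55 in knockouts, which do not overlap (-0.46, SE 0.14, adjusted p 0.105 in limma). At a second bright probe (A_55_P2011390) the values were 1.18, 1.34 and 1.49 against 1.43, 1.34 and 1.60, with a difference of 0.12 (95% interval -0.26 to 0.51). The dimmest probe (A_55_P2798152) gave -0.021 (95% interval -0.54 to 0.50), whose sign changed with the scaling. All 3 carry the same RefSeq accession, NM_001166584. The brightest probe minus the second was 0.73, 0.77 and 0.39 in controls and 0.05, 0.15 and -0.05 in knockouts, without overlap (exact permutation p = 0.1; 0.18 after Benjamini-Hochberg adjustment over 9 probe pairs). So the brightest Tead1 probe and the second differed unequally without overlap, at the limit of what 3 against 3 arrays can test. Which part of the transcript each probe covers is not known here.

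Tead3 read 1.19, 0.85 and 0.73 in controls and 0.78, 0.69 and 1.17 in knockouts (-0.045, 95% interval -0.53 to 0.44, A_55_P2735485). Tead4 (A_51_P179041) was the most variable member among knockouts, at -2.13, -1.19 and -0.44 against -1.30, -1.28 and -0.94 in controls. Its difference of -0.081 has a 95% interval from -1.06 to 0.90, so changes of that size in either direction are not excluded. The sign of both was not stable, as it turned with array weighting (Tead3 0.075, Tead4 0.24). The dim second Tead4 probe (A_66_P115604) gave 0.064 (95% interval -0.41 to 0.54).

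**Figure D2:**
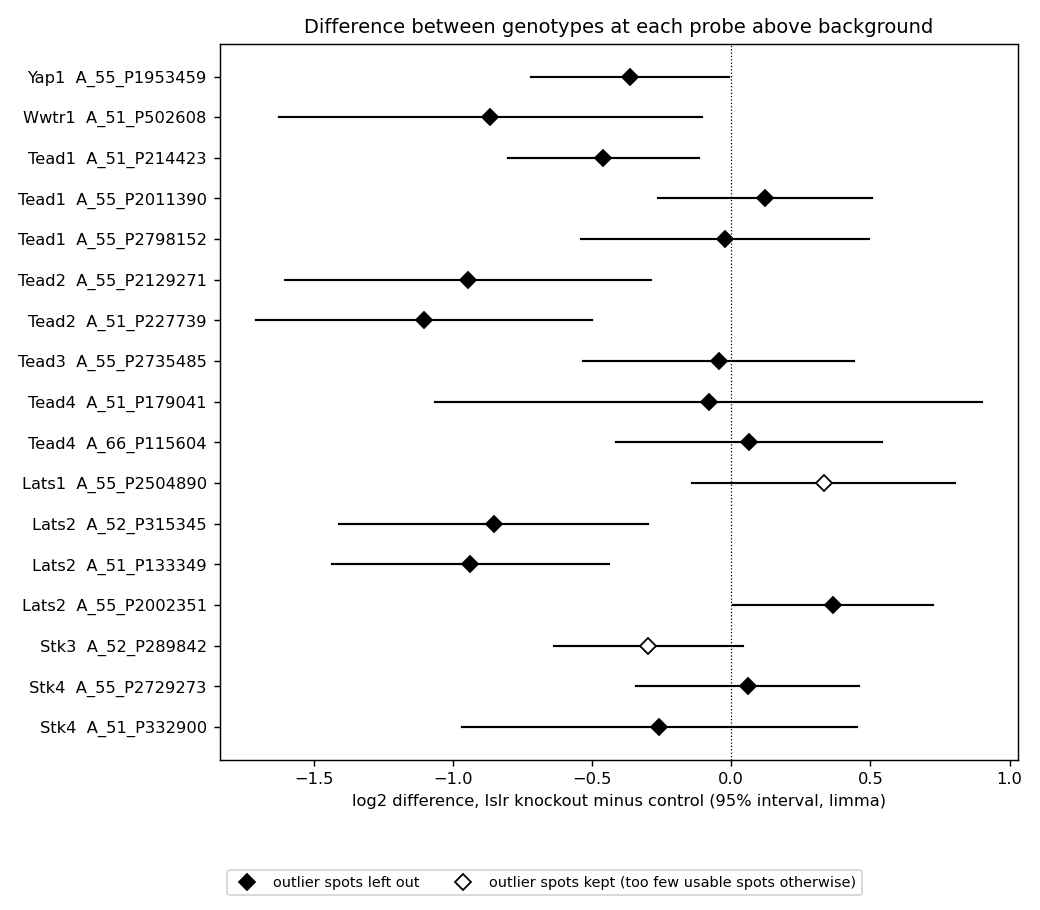
Log2 difference (Islr knockout minus control, horizontal axis) of the 17 probes above background, with 95% intervals from limma; filled diamonds leave out marked spots and open diamonds, for Lats1 and Stk3, keep them. The intervals of Yap1, Wwtr1, both Tead2 probes, the brightest Tead1 probe and 2 Lats2 probes lie below 0 (differences from -0.36 to -1.10), and that of the other Lats2 probe (0.37) lies above 0.

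Among the kinases, Lats2 differed most, and its probes split by assigned transcript. The probe A_52_P315345, assigned to NM_015771, had signals of 12118.5, 15122 and 12234 units in controls against 4361, 7122 and 7154 in knockouts. The second probe of that accession (A_51_P133349) had 2819.9, 3150.3 and 2628 against 838, 1588 and 1396. Both therefore showed every knockout below every control before scaling, with knockout replicate 1 the lowest. The 75th percentile was also lower in every knockout array, and the groups still did not overlap after scaling. On the scaled log2 values they differed by -0.85 (SE 0.22, adjusted p 0.0859 in limma) and -0.94 (SE 0.21, 95% interval -1.44 to -0.44, adjusted p 0.0572), or 1.81-fold and 1.91-fold lower. The second passed under 4 of the 8 other settings on all arrays, with adjusted p from 0.0160 to 0.0385, and in 0 of 6 fits with an array left out (adjusted p 0.0594 to 0.173). Those 4 settings called 2185 to 8119 of all 35351 tested probes, against 1403 in the main fit.

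The remaining Lats2 probe (A_55_P2002351) is assigned to another RefSeq transcript, NM_153382, and went the other way. It was at -3.64, -3.53 and -3.62 in controls and -3.06, -3.32 and -3.32 in knockouts, a difference of 0.37 (SE 0.15, 95% interval 0.01 to 0.73, adjusted p 0.181 in limma). Before scaling its signals overlapped, with 508, 615 and 531 units in controls and 589, 584 and 577 in knockouts. Within an array, A_52_P315345 minus this probe was 4.58, 4.62 and 4.53 in controls and 2.89, 3.61 and 3.63 in knockouts, a difference of -1.20 that does not depend on the scaling. For A_51_P133349 it was -1.30, and the probes of NM_015771 differed from each other by 0.11 only, with overlapping groups. Each of the first 2 contrasts gave an exact permutation p of 0.1 (0.18 after adjustment over the 9 probe pairs), so these probes of Lats2 differed unequally without overlap, at the limit of what 3 against 3 arrays can test.

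RefSeq annotates 2 start sites of Lats2, and the 250 bases before each are shown because the probes of the gene split by transcript. The table does not say which accession begins at which site. Whether either start was in use in these samples was not measured. The first window, with its 50 bases after the start, is 71.7% G and C and holds GGAATG just past the start, shown above; the second is 42.7% G and C and holds no match.
Lats2 first start, chr14:57746124-57746373, minus strand: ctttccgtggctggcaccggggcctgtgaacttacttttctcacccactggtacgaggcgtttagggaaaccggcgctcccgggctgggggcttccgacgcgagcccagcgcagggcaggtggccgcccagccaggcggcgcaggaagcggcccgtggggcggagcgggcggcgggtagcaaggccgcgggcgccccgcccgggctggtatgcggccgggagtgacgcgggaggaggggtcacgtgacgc
Lats2 second start, chr14:57734419-57734668, minus strand: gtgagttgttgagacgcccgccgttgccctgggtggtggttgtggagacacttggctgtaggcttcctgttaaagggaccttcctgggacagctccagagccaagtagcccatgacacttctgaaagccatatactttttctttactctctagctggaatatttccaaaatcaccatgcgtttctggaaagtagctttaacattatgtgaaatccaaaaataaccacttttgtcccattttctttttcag

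Lats1, the paralogue kinase with the same substrates, was not lower in the knockouts. Its brighter probe (A_55_P2504890) was at 0.47, 0.30 and -0.14 in controls and 0.65, 0.49 and 0.47 in knockouts; 4 of these 6 spots were marked as outliers, so it could be fitted only with them kept (0.33, SE 0.20, 95% interval -0.14 to 0.81, adjusted p 0.326 in limma). The groups are separated there by less than 0.01, which is under the spot noise. The other probe (A_52_P642801) was not well above background on any array. Lats1 minus the brightest Lats2 probe was -0.46, -0.79 and -1.05 in controls and 0.82, 0.20 and 0.16 in knockouts. This contrast was 1.16 higher in knockouts with no overlap (exact permutation p = 0.1, 0.225 after adjustment over 9 paralogue pairs), and 0.80 higher when the probes of each gene were averaged.

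**Figure D3:**
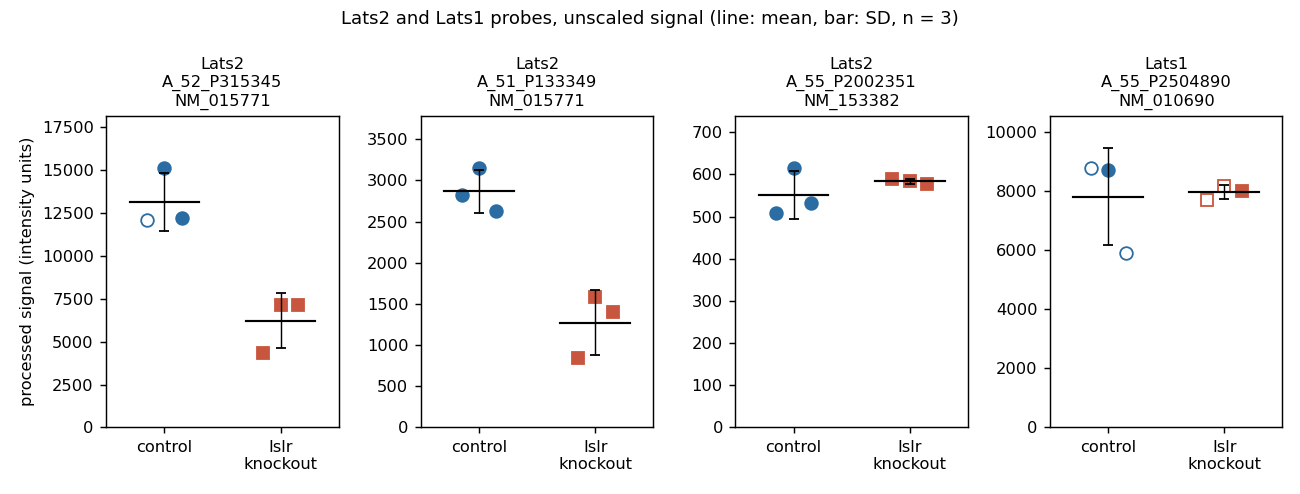
Unscaled processed signal (intensity units, vertical axes from 0) of the 3 Lats2 probes and the brighter Lats1 probe; circles are controls, squares are Islr knockouts, open symbols are marked spots, and lines and bars are means and SD of 3 arrays. Signals of the NM_015771 probes are lower in all knockouts (at A_52_P315345 4361 to 7154 against 12118.5 or more, at A_51_P133349 838 to 1588 against 2628 or more), whereas those of NM_153382 (577 to 589) lie within the control range. These signals are not scaled, and the 75th percentile was also lower in all knockouts (4910.5 to 5820.03 against 6353 to 7110.5).

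The upstream kinases gave smaller differences. Stk3 has a single probe (A_52_P289842), at 1.30, 1.26 and 1.43 in controls and 1.06, 0.96 and 1.07 in knockouts; 2 knockout spots were marked, and with them kept the difference was -0.30 (SE 0.14, 95% interval -0.64 to 0.04, adjusted p 0.230 in limma) without overlap. For Stk4, its paralogue, the brighter probe (A_55_P2729273) was at 1.47, 1.79 and 1.84 against 1.88, 1.75 and 1.66, a difference of 0.059 (95% interval -0.34 to 0.46) that was -0.076 under quantile normalization. The second Stk4 probe (A_51_P332900) gave -0.26 (95% interval -0.97 to 0.45) on 2 usable values per group. Stk3 minus Stk4 was lower in every knockout (-0.81, -0.79 and -0.58) than in every control (-0.16, -0.53 and -0.41), by 0.05 at the closest (difference -0.36, exact permutation p = 0.1, 0.225 adjusted).

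Across the 9 paralogue pairs, 4 did not overlap: Lats1 with Lats2, Stk3 with Stk4, and Tead2 with Tead1 and with Tead4. The share without overlap among other gene pairs was not computed, so this count has no background. For single probes above background that share was 34.9%. The Lats1 and Stk3 values in these pairs include marked spots. Tead2 minus Tead4 was 0.54, 0.80 and 0.26 in controls and -0.05, -0.05 and -0.89 in knockouts (difference -0.86). Tead1 minus Tead2 was 2.66, 2.58 and 2.56 against 3.66, 2.72 and 2.88, a difference of 0.49 that was 0.20 without knockout replicate 1 and 0.91 when the probes of each gene were averaged. None of the 9 could pass, as the lowest exact permutation p is 0.1 and the lowest adjusted value here was 0.225.

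**Figure D4:**
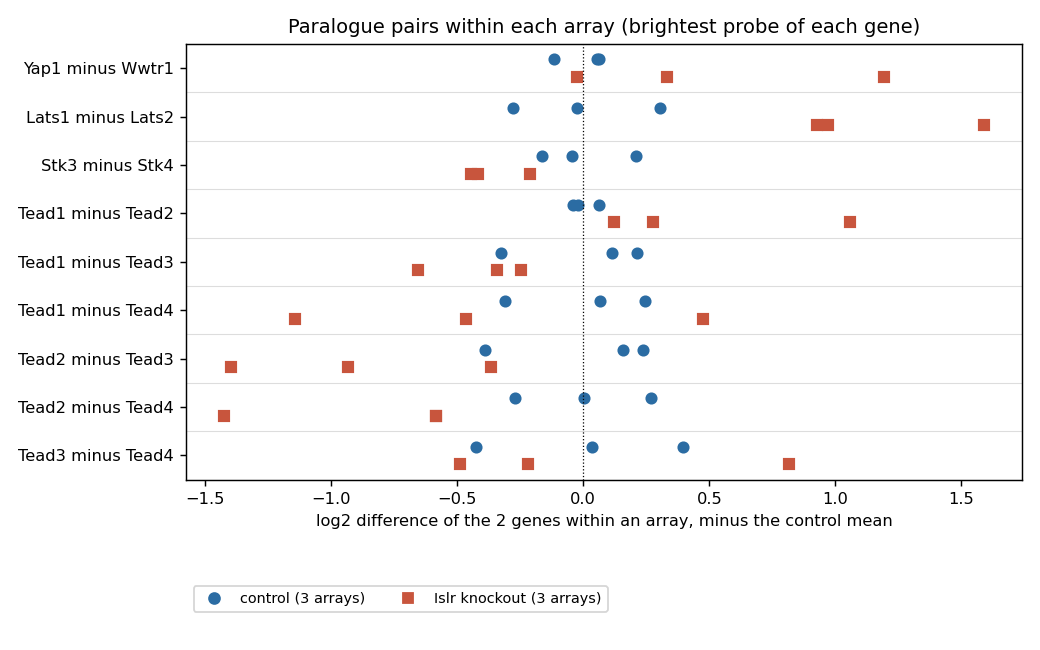
Difference of log2 signal between 2 genes within an array, after subtraction of the control mean (horizontal axis), for 9 paralogue pairs by their brightest probes; circles are controls and squares are Islr knockouts. Knockouts lie apart from controls for Lats1 minus Lats2 (by 1.16 on average), Stk3 minus Stk4, Tead1 minus Tead2 and Tead2 minus Tead4.

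Likeness of members was described as the root-mean-square difference over the 6 arrays between profiles centred on their means, in log2 units. Each member was taken by its brightest probe, with marked spots kept. For Tead1 this was A_51_P214423, whose lower knockout values the other Tead1 probes did not share, so its likenesses hold for that probe only. The Stk3 and Lats1 profiles include marked spots. Among pairs of members the closest were Yap1 and Stk3 (0.070), Yap1 and Tead1 (0.13), Tead1 and Stk3 (0.14) and Tead2 and Lats2 (0.16), and the farthest were Tead2 and Lats1 (0.76). Of 23967 probes of named genes above background on all arrays, the closest to Yap1 was Septin11 (0.046), to Wwtr1 P3h3 (0.053), to Tead2 Cacna2d1 (0.034), and to Lats2 Zfp114 (0.035). These are descriptions of 6 arrays in 2 groups, with no test.

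Several cell type marker lists differed between the groups alongside these genes. The summed level of 12 fibroblast markers, relative to the 75th percentile, was 56.4 to 65.1 in controls and 36.3 to 48.6 in knockouts. That of 10 endothelial markers was 12.9 to 14.4 against 3.92 to 8.60, with knockout replicate 1, the lowest array for Wwtr1, both Tead2 probes and the Lats2 probes of NM_015771, also the lowest of all (3.92). Knockout replicate 1 also had the largest share of spots marked as outliers (16.0%, and 56.8% of its brightest 10%). Its share of spots well above background was the smallest (69.4%). The part of array quality in its values was not tested. Sums of 12 epithelial markers were higher, at 87.6 to 116 in knockouts against 24.2 to 76.7 in controls, as were those of 10 smooth muscle markers (73.9 to 85.8 against 54.8 to 67.5). Of the tested genes in these lists, 11 of 11 fibroblast and 9 of 9 endothelial markers were lower, and 10 of 10 epithelial and 8 of 8 smooth muscle markers higher. Neutrophil sums were 19.3 to 20.9 against 28.1 to 29.5, and the genes behind them split: of 9 tested, 6 fell and 1 rose in limma, 2 did not pass, and the differences ran from -4.47 to 3.66 (median -2.86), with Ngp not well above background on any array. Sums were also lower without overlap for 10 macrophage markers (21.1 to 24.2 against 24.7 to 33.4) and 10 enteric nerve markers (10.5 to 12.97 against 14.1 to 15.6). They overlapped for B and plasma cells (17.5 to 27.5 against 21.2 to 35.7) and T cells (5.49 to 8.37 against 5.79 to 9.28). By gene, 6 of 8 tested macrophage markers and 7 of 8 enteric nerve markers were lower. So were 9 of 9 B and plasma cell and 6 of 8 T cell markers, against 48.8% of all named genes tested. In these 4 lists limma called only 1 gene, a B and plasma cell marker. In bulk RNA, fewer cells of a type and less RNA per cell cannot be told apart, and the part of tissue makeup in the values of the members was not tested.

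The other genes of the pathway were read from 3 lists, each gene by its brightest tested probe. Of 34 scaffolds and upstream regulators 27 were tested, with 12 lower, 15 higher and a median of 0.11. limma called 1 of them, which is 3.7%, against 3.82% of all 16451 named genes tested (2.47% lower and 1.35% higher). That gene was Map4k4, a kinase that activates Lats1 and Lats2 in parallel to Stk3 and Stk4, at 0.62, 0.60 and 0.49 in controls and -1.02, -0.49 and -1.05 in knockouts (-1.42, SE 0.20, adjusted p 0.0286). Its brighter probe was marked on 2 knockout arrays and read -0.93 with marked spots kept (adjusted p 0.0749). Dimmer probes of Taok3, a kinase upstream of Stk3 and Stk4, and Patj, a cell polarity scaffold, also passed, both higher (0.92, adjusted p 0.0416 and 1.78, adjusted p 0.0357 in limma), while their brightest did not (0.81 and 1.12). The calls of Map4k4 and Patj were lost without control replicate 2 or 3 or knockout replicate 1 or 3 (adjusted p up to 0.0892 and 0.102), and that of Taok3 also without knockout replicate 2 (up to 0.135); no sign changed.

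The direct cofactors of the core kinases differed in direction, and none was called. Sav1, the scaffold of Stk3 and Stk4, was at 0.38, 0.31 and 0.16 in controls and -0.29, -0.44 and -0.15 in knockouts, with 4 of 6 spots marked (-0.58, adjusted p 0.0781 in limma with them kept). Mob1a and Mob1b, coactivators of Lats1 and Lats2, gave -0.29 and 0.21 (adjusted p 0.375 and 0.566). Nf2 (merlin), which recruits Lats1 and Lats2 to the membrane, gave 0.22 and 0.57 at its 2 probes (adjusted p 0.566 and 0.0761). Wwc1 (KIBRA), a partner of Nf2, was at 0.33, -2.02 and -0.39 in controls and 1.76, 0.95 and 1.30 in knockouts, a wide control range behind its difference of 2.03 (SE 0.58, adjusted p 0.0903 in limma). Frmd6, another upstream scaffold, gave -0.44 (adjusted p 0.183). Taok1 gave 0.0088 at its brighter probe (adjusted p 0.976) and -0.30 at a slightly dimmer one (adjusted p 0.241 in limma).

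Of 32 partners of YAP and TEAD and inhibitors of the kinases 28 were tested, 17 lower and 11 higher (median -0.18), and 1 was called (3.57%). Of all named genes tested, 48.8% were lower and 3.82% were called. Strip2, a component of the phosphatase complex STRIPAK that restrains Stk3 and Stk4, rose by 1.38 (SE 0.23, adjusted p 0.0444 in limma), a call lost without any control replicate or knockout replicate 1 (adjusted p 0.0561 to 0.124), the 4 such fits in which it could be tested. A dim probe of Limd1, which inhibits Lats kinases, was well above background on all controls and no knockout array, so it was tested only through the controls. Its fitted difference was -1.20 (adjusted p 0.0339 in limma, and 0.0509 with no filter on dim probes). With knockout values raised to the dimmest spot well above background on each array, controls were 1.60-fold higher. Under normexp with quantile normalization the difference was -0.63, a smaller fold than that. The bright probe of Limd1 gave -0.17 (adjusted p 0.546). The angiomotins, which bind Yap1 in the cytoplasm, went different ways: Amotl1 -1.24 (adjusted p 0.0710), Amotl2 -0.18 (0.603) and Amot 0.46 (0.252). Vgll3 and Vgll4, which compete with Yap1 for TEADs, gave -0.41 (adjusted p 0.192) and, with 3 marked spots kept, -1.08 (0.0865). Ptpn14, which holds Yap1 in the cytoplasm, gave -0.19 at its brightest probe and -0.57 at a dimmer one (adjusted p 0.570 and 0.122).

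Of 23 YAP/TEAD target genes, Lats2 among them, 17 were tested, with 12 lower and 5 higher (median -0.27, against 0.01 over all named genes). Of all named genes tested, 48.8% were lower and 3.82% were called, and the share called among the targets rests on 2 genes. limma called 2 (11.8%): Igfbp3, which binds insulin-like growth factors, fell by 1.43 (SE 0.22, adjusted p 0.0321), and Ccdc80, a matrix protein, fell by 1.57 (SE 0.27, adjusted p 0.0390). A dimmer probe of Axl, a receptor tyrosine kinase, fell by 1.40 (adjusted p 0.0395), and its brighter probe was -0.76 (adjusted p 0.0559). The calls of Igfbp3, Axl and the dim Limd1 probe were lost without control replicate 2 or 3 or knockout replicate 1 or 3 (adjusted p up to 0.0924, 0.115 and 0.107), and that of Ccdc80 without control replicate 2 or 3 or knockout replicate 3 (up to 0.109). Of the usual reporters of Yap1 activity, Ccn2 was at 2.52, 2.55 and 2.47 in controls and 0.38, 1.83 and 1.86 in knockouts, with no overlap; its tested difference, without the marked spots of control and knockout replicate 1, was -0.66 (adjusted p 0.119). Ccn1 was at 0.00, 0.17 and -0.29 against -4.27, -0.41 and -0.29, so its mean rests on knockout replicate 1. It could not be tested without marked spots, which were those of control replicates 1 and 3 and knockout replicate 2. Ankrd1, above background in 1 control and 2 knockouts, could not be tested either. Its values overlapped, at -5.83, -4.28 and -6.05 in controls and -6.84, -1.72 and -4.03 in knockouts, with knockout replicate 2 marked.

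**Figure D5:**
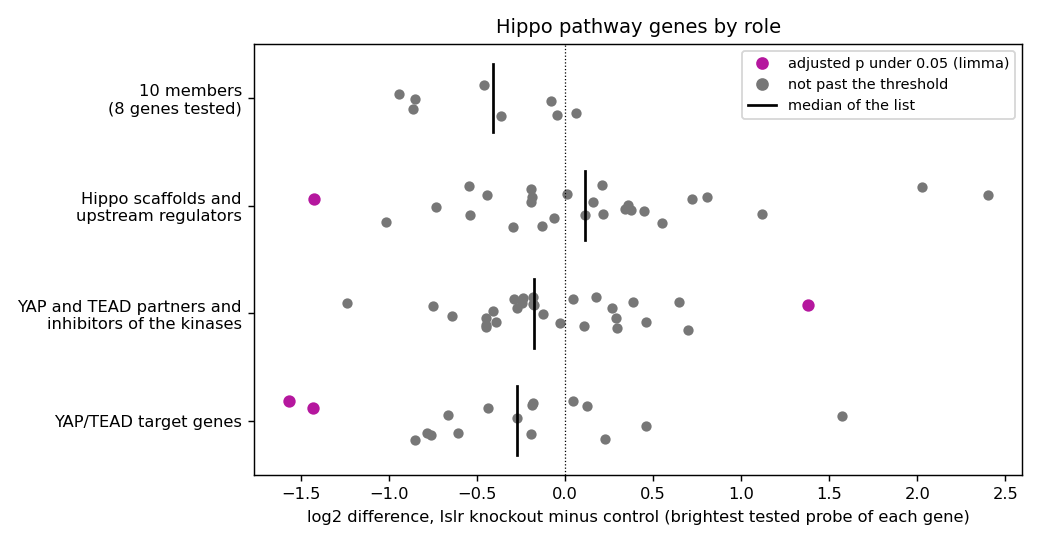
Log2 difference (Islr knockout minus control, horizontal axis) of each tested gene by its brightest tested probe, for the members and 3 pathway lists; purple points passed an adjusted p of 0.05 in limma and vertical lines are list medians. The medians are -0.41 for the 8 members tested, 0.11 for scaffolds and upstream regulators, -0.18 for partners and -0.27 for target genes.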

How the data were processed

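The deposited scanner files hold, per the file headers, red-channel output of Feature Extraction (Agilent, version 11.5.1.1) for design 074809, whereas the labels name Cy3 and a green column and the submitters' processing notes another version. The processed signal in them is an intensity after background subtraction and spatial detrending by the authors' scanner software, with no scaling between arrays; it served as the value of every spot. Each array's log2 75th percentile over 59305 non-control spots was subtracted, spots marked non-uniform or population outliers (3.26% to 16.0% of an array) were left out, and spots of a probe were averaged. Probes well above background on all 3 arrays of a group, with at least 2 usable values per group, were tested with limma 3.58.1 in R 4.3.3 (genotype only, two-sided, Benjamini-Hochberg over 35351 probes). The series value table, deposited intensity values that matched the scanner files at a log2 correlation of at least 0.999999, was an alternative. No spot was saturated, and the number of arrays limits the precision.

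Probes were named by RefSeq accession in assembly GRCm38.p6; the files give mm9 as their build, so no probe positions are given. Named are all member probes, 17 further pathway genes and any listed pathway gene with a called probe; likeness used marked spots. Members and lists were chosen with earlier results of these data known. Exact permutation tests are two-sided, keep marked spots and enumerate 20 splits. Alternatives were kept outlier spots, normexp (offset 50) with quantile normalization, median centring, quantile normalization, no filter on dim probes, array weights, a trended robust prior, the value table, averaging over probes, and each array left out; the file held no mean spot signal, so normexp used the median.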

Additional observations from a re-analysis of the deposited data

How the results depend on the processing

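Over all probes the count of calls was 1403 and became 2773 (normexp with quantile normalization), 2249 (median centring), 2185 (quantile normalization), 484 (no filter on dim probes), 8119 (array weights) and 40 to 2114 with an array left out (2114, 71 and 90 without control replicates 1, 2 and 3, and 263 and 40 without knockout replicates 1 and 3). Of the calls 39.1% were higher, 50.7% with array weights, and 10% (without knockout replicate 3) to 55.1% (without control replicate 1) with an array left out. Called member probes, 0 of 15 in limma, were 4 under normexp with quantile normalization, 2 under median centring, 2 under quantile normalization and 5 with array weights (2 of Lats2, 2 of Tead2 and 1 of Tead1). In that order, these settings called 2773, 2249, 2185 and 8119 of all 35351 tested probes, so calls rose over all probes too. Called member probes were 0 under the other 4 settings on all arrays and 0 to 0 in the 6 fits with an array left out. The cause was not tested. Member probes with an unadjusted p under 0.05 were 8, and 3 to 6 with an array left out (13 probes tested without control replicate 2 or 3). Non-overlapping paralogue pairs were 4, and 4 to 7 with an array left out. Leaving out an array cannot make separated groups overlap, so this count could not fall and does not test the 4 pairs.

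Sign changes were limited to 5 member probes, each with an adjusted p above 0.3 in every setting. Tead4 A_51_P179041 was 0.24 with array weights and -0.49 to 0.36 with an array left out. Stk4 A_55_P2729273 was -0.046 under normexp, -0.076 under quantile normalization, -0.061 with array weights and -0.057 to 0.13 with an array left out. Tead3 was 0.075 with array weights and -0.19 to 0.089 with an array left out, and Tead4 A_66_P115604 -0.11 to 0.22. Tead1 A_55_P2798152 was 0.060 under normexp, 0.0086 under median centring, 0.0052 with the value table and -0.14 to 0.13 with an array left out. Yap1, Wwtr1, both Tead2 probes, all Lats2 probes and the other Tead1 probes kept their sign in every setting in which they were tested. No paired analysis was possible because the labels give the animals no shared numbers. With no filter on dim probes, which adds probes to the adjustment, 7 of the 8 called pathway probes lost their call, Map4k4 excepted. Groups of 3 arrays limit what can be called.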

Other observations

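Among pathway genes outside the rule for naming, 3 further differences were chosen after their values were seen, and none passed in limma with marked spots left out. Crb3, an apical polarity protein of epithelium that restrains Yap1, was 2.40 higher in knockouts (SE 0.72, adjusted p 0.0978). A wide control range lies behind this, with values of 0.05, -3.00 and -1.10 against 1.37, 0.60 and 1.18 in knockouts. Dchs1, an atypical cadherin upstream of the kinases, was lower, with a difference of -1.01 (SE 0.37, adjusted p 0.153). Dock5, a guanine nucleotide exchange factor among the target genes, was 1.57 higher (SE 0.32, adjusted p 0.0503, and 0.0466 with marked spots kept, where it passed), against the direction of most of its list.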
